A study of Hordeum vulgare with 2 samples.

Results

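This account covers the proteasome subunits, ubiquitin-pathway proteins and peptidases among cysteine peptides of germinated barley embryo. Members were peptides whose deposited protein name, in either run, holds the word proteasome, ubiquitin, protease or peptidase and neither ribosomal nor inhibitor. The rule found 11 peptides from 9 protein entries, out of 210 different peptides in both runs together, and 0 peptides were set aside for the words ribosomal or inhibitor. Of the members, 10 were among the 199 peptides of the blocked run and 7 among the 93 peptides of the control run, and 6 were measured in both.

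Embryos were dissected from seeds of Barke, a malting barley, after 48 h of germination, and their protein extract served both runs. Thiols that were free during extraction were closed with iodoacetamide (IAM) in both, so that mainly cysteines oxidised or shielded at that point could be tagged later. Extract then stood for 1 h with or without thioredoxin, a small protein that reduces disulfide bonds of other proteins. The blocked run received a second dose of IAM, at 10 mM, to close the cysteines that thioredoxin had opened, and the control run did not. Remaining cysteines were reduced chemically and given isotope-coded affinity tags (ICAT), the light tag marking thioredoxin-treated extract and the heavy tag its untreated partner, before equal parts of both were mixed. The deposited value is the heavy/light ratio of a peptide. A ratio near 1 means equal tag on both sides, and a cysteine opened by thioredoxin takes up less light tag after the block and so rises above 1. Each group is 1 sample: the ± values are the deposited SDs of single runs, no replicate error exists, no p-value is given, and peptides do not stand in for replicates. The description of the control names extract with and without thioredoxin and was followed, although its source name says untreated.

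The proteasome is the large barrel-shaped protease that breaks down proteins marked with ubiquitin. Its core is built of outer rings of alpha subunits, which gate the entry, and inner rings of beta subunits, some of which cut peptide bonds with an N-terminal threonine. Ubiquitin is attached through a chain of enzymes that starts with the ubiquitin-activating enzyme E1, which holds ubiquitin on a cysteine as a thioester, and deubiquitinating enzymes of the UBP family remove it again with a catalytic cysteine. In germinating cereal seeds this system works inside living cells, beside the secreted proteases that digest the storage proteins of the endosperm.

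Each member peptide holds exactly 1 cysteine, so the tag of a member sits on that residue alone. The peptides of SMT3 and the aminopeptidase and the 18-residue peptide of E1 were identified with an oxidised methionine. The part of that oxidation in their ratios was not tested. Peptides with 1 cysteine made up 195 of all 210. The peptides of up to 12 residues are spelled out, because the tagged cysteine and its neighbours are what the ratio reports on, and the longer ones are described by the place of their cysteine. Among the proteasome subunits these were the peptides of alpha type 1 (TC132063, a barley assembly named after a rice protein), alpha type 3 (PSA3_ORYSJ, a rice entry), alpha type 6 (PSA6_ORYSJ, a rice entry that shares its peptide with a tobacco one) and beta 1 (an entry of the wheat relative Aegilops tauschii).

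Alpha type 1, shorter peptide: QGSACVGLR

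Alpha type 3: LSELTCR

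Alpha type 6: CDPAGHFFGHK

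Beta 1: ISQLTDNVYVCR

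The longer peptide of alpha type 1 has 18 residues with the cysteine at position 3, between glutamate and isoleucine. The peptide of alpha 4 (TC130803, a barley assembly named after a maize protein) has 16 residues with the cysteine at position 12, between alanines. It also matches a further barley assembly, so its ratio cannot be assigned to a single assembly. The beta 1 peptide also matches further entries. The ubiquitin-pathway members were the ubiquitin-activating enzyme E1 (UBE11_WHEAT, a wheat entry whose peptides also match a further wheat E1 entry), the small modifier SMT3 (SMT3_ORYSJ, a rice entry) and UBP14 (TC140178, a barley assembly named after an Arabidopsis protein).

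SMT3: LMNAYCDR

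The SMT3 peptide also matches an Arabidopsis entry. The UBP14 peptide has 20 residues with the cysteine at position 17, between serine and glycine. The E1 enzyme gave a peptide of 17 residues and a peptide of 18, each with the cysteine at position 1. The single peptidase, an aspartyl aminopeptidase (TC132714, a barley assembly named after an Arabidopsis protein), gave a peptide of 16 residues with the cysteine at position 3, between methionine and alanine.

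The names of these entries come from other plants, and the files pair none of them with a barley gene, so genome positions were not used here. Of the proteasome entries 4 were alpha subunits and 1 was a beta subunit. The files name 0 peptides as a subunit of the regulatory particle, the cap that unfolds substrates. In 3 of the 11 member peptides the cysteine is the first residue (alpha type 6 and both E1 peptides), against 26 of all 210. A charged residue (D, E, K or R) follows the cysteine in 4 of the 11 members and in 44 of the 210. Per the deposited flanking residues, the 17-residue E1 peptide is followed in its protein by a cysteine, and the 18-residue one is preceded by a lysine. Whether the measured cysteines of E1 and UBP14 are the catalytic ones was not tested.

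The first comparison asked which members carried less light tag once thiols opened by thioredoxin had been closed. In the blocked run 1 of the 10 members, UBP14, lay above the upper control limit of 1.24, and the other 9 lay within the limits. Over all 199 peptides of that run 50.8% lay above this limit and 49.2% within the limits. The limits lie 2 SD of the log2 ratio on either side of the mean of all control peptides, at ratios of 0.822 and 1.24. The median ratio of the members was 1.04, against 1.25 over the whole run, and 9 of 10 members lay below that run median, as did 49.7% of all its peptides. The share of 1 in 10 has an exact Clopper-Pearson 95% interval of 0.253% to 44.5%, which treats peptides as independent and covers counting only. The 10 members come from 9 protein entries, and with 1 sample per group the interval is no test against the share of the run.

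The proteasome subunits stood close to 1 in the blocked run. Both peptides of alpha type 1 were the lowest, with 0.972 for QGSACVGLR (SD listed as 0) and 0.988 ± 0.05 for the 18-residue peptide. Alpha type 6 had 0.996 ± 0.05 and alpha 4 had 1.029 ± 0.12. Beta 1, the subunit of the caspase-like cutting activity, had 1.044 ± 0.05 and alpha type 3 had 1.045 (SD listed as 0). All 6 peptides thus fell within 0.972 to 1.045 with a median of 1.01, against a run median of 1.25. Of the 6, 0 lay above the limit, against 50.8% of all 199 peptides of the run. Their ranks, counted from the lowest of 199, ran from 12 to 37. The SD ranges of the 4 proteasome peptides with an SD above 0 all overlapped with one another.

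The ubiquitin-pathway members stood higher than every proteasome peptide of the blocked run. SMT3, the plant form of the modifier SUMO, which is joined to target proteins in a way similar to ubiquitin but is no enzyme itself, had 1.126 (SD listed as 0). The 17-residue peptide of E1 (UBE11_WHEAT) had 1.131 ± 0.08. UBP14 (TC140178), which in Arabidopsis takes apart free ubiquitin chains and is needed for early embryo development, had 1.536 ± 0.11. In rank these were 71, 72 and 143 of 199. The SD range of UBP14, 1.43 to 1.65, was apart from that of the E1 peptide, 1.05 to 1.21, while the E1 range overlapped with the range of beta 1, 0.994 to 1.094. The aminopeptidase, a metal-dependent enzyme that removes acidic residues from the N-terminus of peptides, had 0.994 ± 0.07, which lies inside the range of the proteasome peptides. Written as an apparent loss of light tag, 100 × (1 − light/heavy), UBP14 had 34.9%, the E1 peptide 11.6% and SMT3 11.2%. In order of ratio, neighbouring members overlapped in their SD ranges in 4 of 9 pairs, were apart in 1 (the E1 peptide and UBP14) and could not be compared in 4 because an SD is listed as 0.

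**Figure D1:**
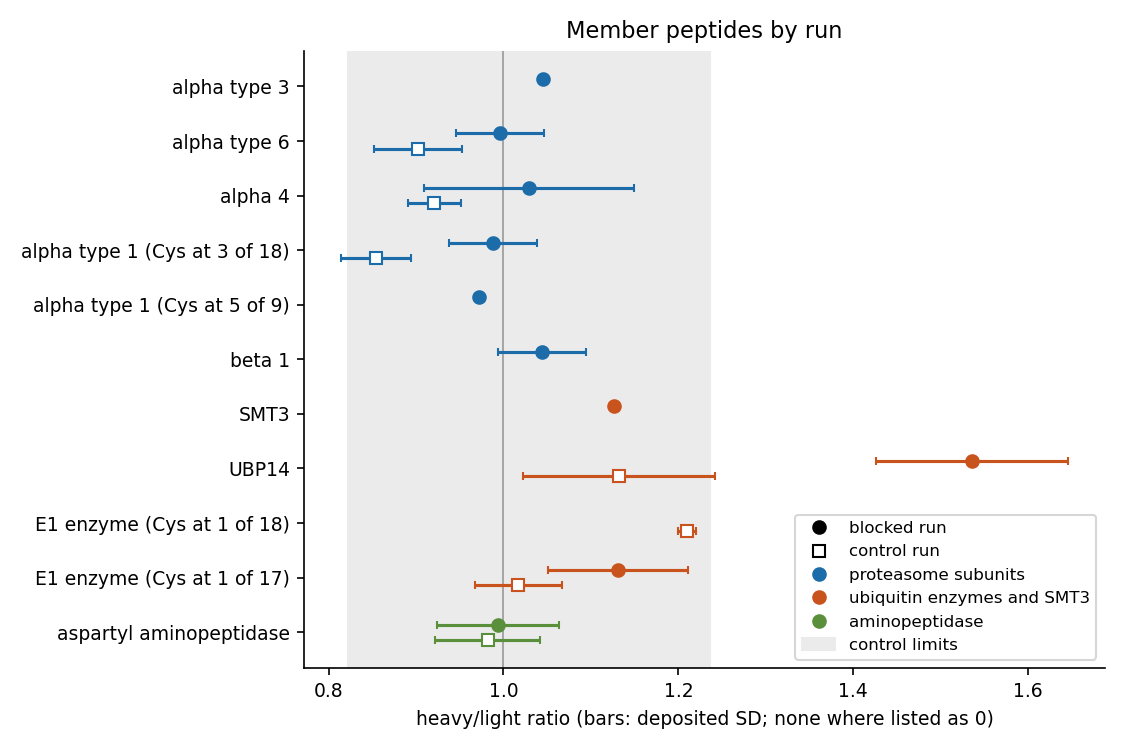
Heavy/light ratio of the 11 member peptides (rows, by protein name, with the place of the cysteine where a protein has 2 peptides) in the blocked run (filled circles) and the control run (open squares), with the deposited SD as bars and the control limits of 0.822 to 1.24 as a grey band. UBP14 in the blocked run, at 1.536, is the single point beyond the band, and the proteasome peptides sit near 1 in the blocked run and below 1 in the control run.

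The control run showed how the same cysteines read when no thiol was closed after the incubation. Here 0 of 7 members lay above the limit, against 2.15% of all 93 control peptides, a share that is small by construction since the control sets the limits. The proteasome peptides had the lowest values among the members. The 18-residue peptide of alpha type 1 had 0.854 ± 0.04, alpha type 6 had 0.902 ± 0.05 and alpha 4 had 0.921 ± 0.03, ranks 5, 13 and 17 from the lowest of 93. All 3 were below the control median of 1.01, as were 49.5% of all control peptides. The aminopeptidase had 0.982 ± 0.06.

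Ubiquitin-pathway members were again higher than the proteasome subunits without the block. The 17-residue E1 peptide had 1.017 ± 0.05 and UBP14 had 1.132 ± 0.11, ranks 50 and 82. The 18-residue E1 peptide, measured in the control run alone, had 1.21 ± 0.01, rank 89 of 93, just under the upper limit. The order of proteasome subunits below ubiquitin-pathway members was therefore present in both runs, with medians of 0.902 and 1.132 in the control run against 1.01 and 1.131 in the blocked run. These medians rest on partly different peptides in each run. Over the peptides of both runs alone, they were 0.902 for the 3 proteasome subunits and 1.07 for the 2 ubiquitin-pathway members in the control run, and 0.996 and 1.33 with the block. The 2 peptides of E1 had SD ranges apart in the control run (0.967 to 1.07 and 1.2 to 1.22). By the deposited SDs, cysteines of the same protein entry thus gave unequal ratios where no second block was used. This call leans on the SD of 0.01 of the 18-residue peptide, the lowest SD above 0 in that run. The number of spectra behind that SD is unknown. The match of the 18-residue peptide had a calibrated mass error of 21.1 ppm, against -13.3 ppm for the other E1 peptide in that run, and its part in the ratio was not tested.

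**Figure D2:**
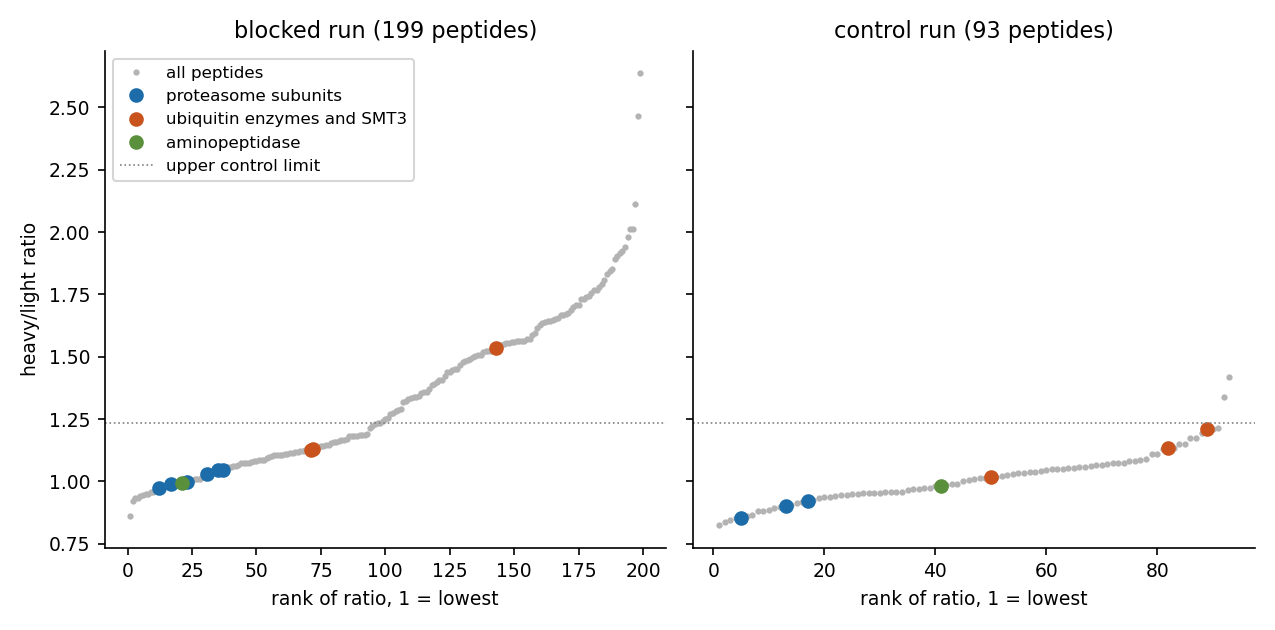
All peptides of each run in order of heavy/light ratio (horizontal axis, rank from the lowest; vertical axis, ratio), with proteasome subunits, ubiquitin enzymes with SMT3, and the aminopeptidase coloured. Proteasome subunits hold ranks 12 to 37 of 199 in the blocked run and 5 to 17 of 93 in the control run, and the ubiquitin-pathway members hold higher ranks in each.

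The second comparison set each shared member against itself, with and without the block. All 6 shared members were higher with the block, as were 98.8% of all 82 shared peptides. The SD ranges of the 2 runs were apart for 2 of the 6, alpha type 1 and UBP14, against 62.3% of the 69 shared peptides for which neither SD is listed as 0. The median difference of the members was 0.16 on the log2 scale (1.11-fold), against 0.31 (1.24-fold) over all shared peptides, and 5 of the 6 lay below that overall median fold, as did 50% of all. Whether the authors centred the ratios is unknown, and relative to the overall 1.24-fold median, an alternative chosen after seeing the data, the members' median difference was -0.15 on the log2 scale. With blocked ratios rescaled in that way, 4 of 10 members lay below the lower limit, against 14.6% of all 199 peptides. Most peptides behind this divisor were higher in the blocked run, so dividing by it lowers peptides that differed less. With 1 sample per group, an offset between the runs and an effect of the block cannot be told apart. As deposited, these 4 members had 0.972 to 0.996, within the limits, and they are not shown to be lowered.

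UBP14 had the largest difference among the members, from 1.132 ± 0.11 to 1.536 ± 0.11, which is 1.36-fold (0.44 on the log2 scale, with a propagated SD of 0.17). That places it at rank 50 of 82 from the smallest difference, near the middle of the shared peptides rather than at their upper end. In the control run its apparent loss of light tag was already 11.7%, and the upper end of its control SD range, 1.24, reached the limit.

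The proteasome subunits and the E1 peptide had similar, small differences. Alpha type 1 had 1.16-fold (0.21 on the log2 scale, propagated SD 0.10), alpha 4 had 1.12-fold (0.16, propagated SD 0.17) and alpha type 6 had 1.10-fold (0.14, propagated SD 0.11). The E1 peptide of both runs had 1.11-fold (0.15, propagated SD 0.12), which lies among the proteasome subunits. Measured against its own control value, the E1 peptide thus did not stand higher than the proteasome subunits, although it did so in the ratios of each run. The aminopeptidase had 1.01-fold (0.02, propagated SD 0.13), the second lowest fold of all 82 shared peptides. The lowest, at 0.886-fold, was a peptide with a lower ratio in the blocked run. Alpha type 3, beta 1, QGSACVGLR of alpha type 1, and SMT3 have no control value, so their blocked ratios could not be set against themselves.

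**Figure D3:**
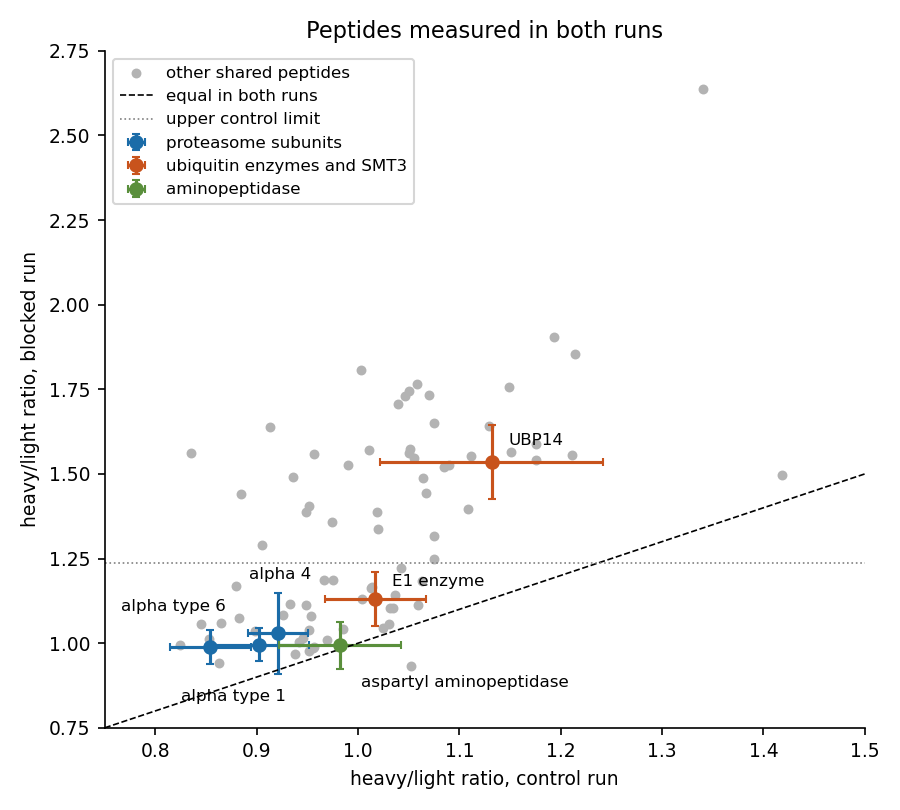
Heavy/light ratio in the blocked run (vertical axis) against the control run (horizontal axis) for the 82 peptides of both runs, with the 6 shared members coloured, bars for the deposited SD, a dashed line of equal ratios and a dotted line at the upper control limit. The proteasome subunits lie at the low left, slightly above the line of equal ratios, the aminopeptidase lies almost on it, and UBP14 lies beyond the limit at 1.132 in the control run and 1.536 in the blocked run.

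The identified form of the tag moved with these classes. In the blocked run all 6 proteasome peptides and the aminopeptidase were identified from the light form, and the 3 ubiquitin-pathway members from the heavy form. Over the whole blocked run, peptides identified from the heavy form had a median ratio of 1.39 (119 peptides, 62.2% above the limit) and those from the light form 1.15 (80 peptides, 33.8% above). In the control run all 3 ubiquitin-pathway peptides measured there were likewise identified from the heavy form, and alpha type 1 and alpha type 6 from the light form. Alpha 4 and the aminopeptidase were there identified from the heavy form, each with a calculated mass 9.03 Da above that of the light form in the blocked run. The control medians of heavy and light identifications were 1.02 and 0.985. The part of the identified form in the ratios was not tested. Mascot scores of the members, a measure of how well the spectrum matches the peptide, were 33 to 71 in the blocked run and 33 to 73 in the control run, against medians of 41 and 39 over the runs.

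Other proteins of protein quality control were named by a wider word list that holds no member. It took in 9 peptides of the blocked run, and 2 of them lay above the limit, where the share over the whole run was 50.8%, with a median ratio of 1.16. The highest was VIPDFMCQGGDFTR of cyclophilin A-2, a peptidyl-prolyl isomerase, at 1.904 ± 0.19, and the lowest was IIPGFMCQGGDFTR of a cyclophilin named after a cucumber protein, at 1.08 ± 0.11. In the control run 0 of the 5 peptides of this list lay above the limit, against 2.15% of all 93, and their median was 1.00. The list holds the homolog of cell division cycle protein 48, the ATPase that extracts ubiquitin-marked proteins and delivers them to the proteasome, whose peptide GVLFYGPPGCGK had 1.236 ± 0.13 and so lay at the limit itself. As a check of the tissue, markers were picked by words in the protein names. Embryo words, such as embryo globulin and late embryogenesis, gave 5 peptides with the block and 4 without it. Words for the starchy endosperm (hordein, beta-amylase, alpha-amylase inhibitor and avenin) gave 5 and 1. Peptides with endosperm names were thus measured as well, and the tissue they came from was not tested. Of the marker peptides, 4 of 5 embryo and 4 of 5 endosperm ones lay above the limit in the blocked run, beside the same 50.8% of all peptides.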

How the data were processed

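The samples were 1 blocked run and 1 control run of ICAT-labelled barley embryo extract. Per the series description, the authors made peak lists in Analyst QS 2.0 (Mascot script 1.6b20). They searched the green plant part of Swiss-Prot 54.6, a public non-redundant collection and the barley gene index (HvGI) 9.0, at a mass tolerance of 0.2 Da, and took ratios with MSQuant 1.4.3a12. Matches needed a Mascot score of 20 and a tag of 3 residues, per the same source. The deposited ratio is the authors' average heavy/light ratio per peptide, and the deposited SD is in ratio units. The deposited score is the Mascot score. The number of spectra behind a ratio, which sets its precision, is unknown, and so is any centring of ratios. An SD listed as 0 was read as unknown error.

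Tables were joined on the peptide sequence in Python 3.11.15 with pandas 2.3.3, and ratios were taken to log2. Propagated SDs combine the deposited SDs of both runs. Peptides were counted against the control mean ± 2 SD. The counting was tried on simulated ratios in which changed values were doubled. That trial does not bear on calls near the limit. Names with ubiquitin and without proteasome form the ubiquitin class, which therefore holds UBP14 and SMT3. Every member was named. Members and lists were chosen with earlier results of these data known. Alternatives covered the limit, the scale, the score, the unit and the classes.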

Additional observations from a re-analysis of the deposited data

How the results depend on the processing

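The single member above the limit in the blocked run was UBP14. The count of 1 held under limits of 3 SD, a scaled median absolute deviation and the highest control peptide. It held too under a fixed ratio of 1.5 and under limits from control peptides with 1 cysteine. Above 1.5 lay 32.7% of all 199 peptides of the run, and the SD range of UBP14, 1.43 to 1.65, reached below 1.5. For the other changed limits the share over all peptides was not counted. The count of 1 also held for every other alternative run. Of 70 alternative values, 63 differed from the reported one by at most 1.5 times (counts) or by under 1 SD among the peptides of the class concerned (medians), 6 moved further and 1 turned direction. The aminopeptidase, a class of 1 peptide with no SD, was taken as moved by any change. By that measure, what moved or turned came from rescaling the blocked run. Divided by 1.11, the median fold of shared peptides within the limits, the proteasome median was 0.910, the aminopeptidase had 0.893, and the median difference of shared members was 0.0022 on the log2 scale. Divided by 1.24, the median fold of all shared peptides, an alternative chosen after seeing the data, the median of members was 0.836, of proteasome subunits 0.817 and of the aminopeptidase 0.802, and the median difference was -0.15. The ratio of UBP14 was then 1.239, barely above the limit, and 4 of 10 members lay below the lower limit, against 14.6% of all 199 peptides. The divisor of 1.24 may hold an offset between the runs, an effect of the block or both, which cannot be told apart here. These 4 members are therefore not shown to be lowered. These divisors shift all peptides of the blocked run alike, so that the order of members within the run cannot move. The median of ubiquitin-pathway members was 1.33, above the limit, where SMT3 dropped out (a score of at least 40, shared peptides, or an SD above 0), a move smaller than the SD of 0.235 among the 3 peptides of that class, which is wide because of UBP14. Names of 26S protease subunits did not occur, and all members have 1 cysteine, so those choices could move no member. Names of the same run only returned the same values, and no control peptide can lie above the highest control peptide. Such alternatives are counted among the 63 but do not test stability. No paired analysis was possible because each group has 1 sample.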
